A study of Homo sapiens with 6 samples.

Results

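Ribosome production is among the most direct outputs of the transcription factor MYC, and 35 genes of nucleolar ribosome assembly and growth that are widely used as MYC targets were followed here in tumors of mice given PBS or epinephrine (Epi). A gene was read through the probesets annotated to it alone, and where it had several, the brightest on average across the 6 arrays was taken. By this rule 33 of the 35 genes were measured, out of 18132 genes in all, and GNL3 and AIMP2 had no probeset of their own. The array was the Affymetrix Human PrimeView, which detects human mRNAs by short oligonucleotide probes, and values are on the log2 scale, so that a difference of 1 is a 2-fold difference.

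The tumors grew from the human cell line MDA-MB-231, derived from a triple-negative breast cancer, of which 1000000 cells were placed in PBS and Matrigel beneath the skin of each flank of NOD/SCID mice aged 4 to 6 weeks. These mice lack functional T and B cells. The Epi group (3 arrays) received 2 mg epinephrine per kg and day under the skin, started 7 days ahead of the tumor cells, and the PBS group (3 arrays) received the same volume of PBS. RNA came from cells isolated from the xenografts. A code in the labels reads 20 for Epi replicate 2 and 10 for the other Epi arrays, and its meaning is not given. The labels call the arrays biological replicates but do not say whether they came from different mice or from the flanks of the same mouse, and p-values measure only the spread between these arrays.

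Cells make ribosomes in the nucleolus. RNA polymerase I transcribes a long precursor of ribosomal RNA, small nucleolar ribonucleoproteins (snoRNPs) guide its chemical modification, and large assemblies of processing factors cut and fold it into the small and large subunits. MYC, bound to its partner MAX, raises transcription of many genes at every one of these steps, and it recognizes the E-box, a short DNA motif. Because MYC activity is read from its targets as well as from its own mRNA, the comparison asks whether these targets differed between tumors of Epi- and PBS-treated mice.

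The E-box with the letters CACGTG was frequent at the starts of these genes. RefSeq windows of 300 bases (250 before and 50 after each gene start, build GRCh38.p14) were on hand for 29 of the 33 genes and not for NOP58, NOLC1, RRP12 and BOP1. Of these 29 genes, 15 (51.7%) held at least 1 CACGTG, against 10.9% of the 14425 measured genes that had a window. Counted by window, since some genes have several starts, the share was 37.5% of 40 against 8.29% of 20403. The motif reads the same on both strands, and a match is a run of letters, not a bound site. The stretches below carry it in capitals and belong to genes on which the results turn. They begin 30 bases before the motif and run 5′ to 3′ along the gene.
PES1, chr22:30591882-30591927, minus strand: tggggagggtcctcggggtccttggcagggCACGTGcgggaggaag
MRTO4, chr1:19251789-19251834, plus strand: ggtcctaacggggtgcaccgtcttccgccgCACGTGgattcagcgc
FBL, chr19:39846358-39846403, minus strand: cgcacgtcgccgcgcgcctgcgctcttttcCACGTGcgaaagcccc
UTP20, chr12:101280065-101280110, plus strand: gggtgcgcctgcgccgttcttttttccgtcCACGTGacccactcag
DDX21, chr10:68956586-68956631, plus strand: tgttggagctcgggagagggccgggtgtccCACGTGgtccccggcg
HSPD1, chr2:197500347-197500392, minus strand: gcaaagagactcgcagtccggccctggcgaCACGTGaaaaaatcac
HSPE1, chr2:197500327-197500372, plus strand: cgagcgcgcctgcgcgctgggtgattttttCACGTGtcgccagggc

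HSPD1 and HSPE1 are read in opposite directions from neighboring starts, and both stretches hold the same E-box, seen from either strand. It lies 88 bases before the upstream HSPD1 start and 22 bases before the HSPE1 start. The window of the other HSPD1 start held no match. CDK4 was the only gene of the 29 searched with several matches, 3 in the 250 bases before its start, and this whole stretch is shown for that reason.
CDK4, chr12:57752311-57752560, minus strand: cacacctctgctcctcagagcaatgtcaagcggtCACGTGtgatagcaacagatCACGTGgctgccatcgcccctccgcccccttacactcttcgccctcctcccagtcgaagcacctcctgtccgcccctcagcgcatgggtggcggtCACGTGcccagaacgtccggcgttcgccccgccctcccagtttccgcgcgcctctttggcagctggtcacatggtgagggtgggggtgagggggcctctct

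None of the 33 targets of MYC differed between Epi and PBS tumors beyond the spread between arrays. Their log2 fold changes (Epi minus PBS) lay between -0.40 for FBL and 0.65 for UTP20, none reached a 2-fold difference, and the adjusted p was 0.9999 for each of them (limma with Benjamini-Hochberg adjustment over all 18132 genes). No gene on the array passed in this fit either (0% called). At an unadjusted p under 0.05 none of the 33 passed, against 1.33% of all genes. The median log2 fold change of the 33 was 0.045, and the median over all genes was -0.016. Of the 33, 19 lay above 0 (57.6%, against 45.7% of all genes) and 14 below. With the replicate number as a block in the model, 0.673% of all genes were called and again none of the 33, the lowest adjusted p being 0.749 for UTP20.

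The intervals show which differences these arrays cannot exclude. The 95% interval of 24 of the 33 genes lay inside a 2-fold difference in both directions (72.7%, against 72.8% of all genes), and with the replicate block this held for 32 of the 33 (97.0%, against 95.7%). Without the block the intervals reached 0.51 to 1.20 to each side of the estimate. The widest of these were those of NOP58, DDX21, POLR1B and UTP20.

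**Figure D1:**
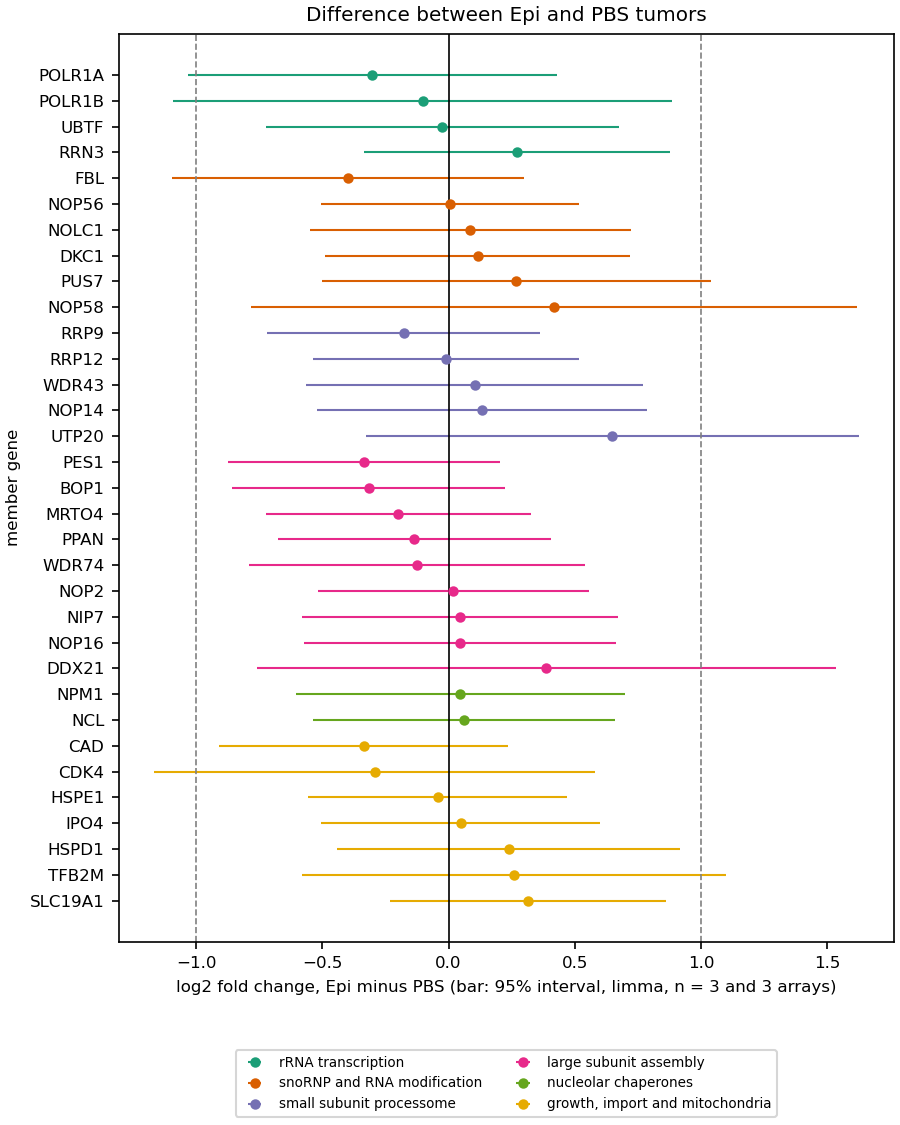
Log2 fold change (Epi minus PBS, x axis) of each of the 33 measured genes (y axis), colored by role, with the 95% interval from limma (n = 3 arrays per group). Every interval includes 0, and the dashed lines mark a 2-fold difference in each direction.

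The direction depended on the replicate number. Epi replicate 1 lay below PBS replicate 1 for 29 of the 33 genes (87.9%, against 46.3% of all genes), with a median difference of -0.26. This was not particular to the 33: of 251 measured genes in 6 related lists, described below, 86.1% also lay below. In replicate 2, Epi lay above PBS for 21 of the 33 (63.6%, against 59.4% of the 251 list genes and 43.4% of all genes), with a median of 0.20. In replicate 3 there were 17 genes above and 16 below 0, with a median of 0.0043. The share above 0 was 51.5%, against 61.4% of the 251 list genes and 39.5% of all genes. The labels do not say whether the numbers pair the tumors, so these are differences between arrays that share a number.

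**Figure D2:**
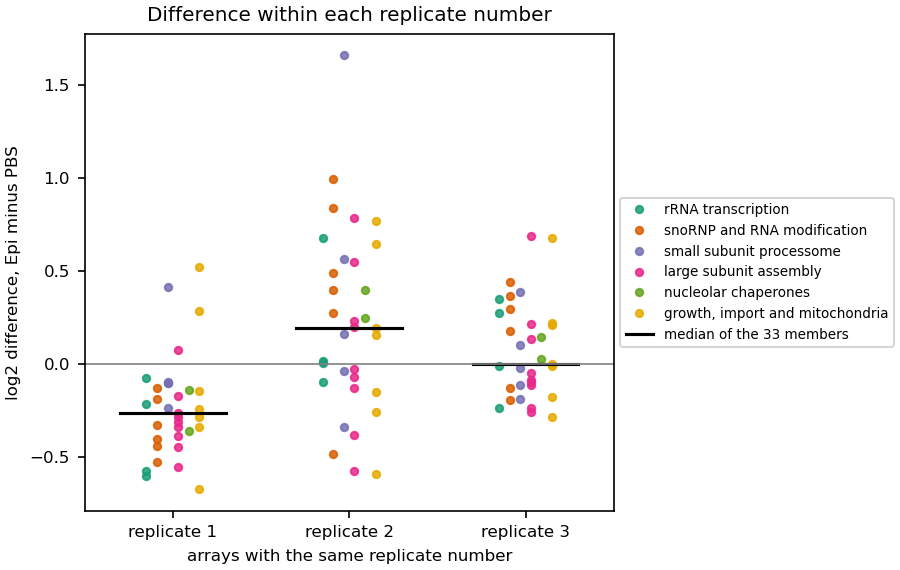
Difference between the Epi and the PBS array of the same replicate number (y axis, log2) for the 33 genes, colored by role, with the median as a black bar. Most points lie below 0 in replicate 1 and above 0 in replicate 2, and replicate 3 is centered near 0.

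The lowest values gathered on a pair of arrays. PBS replicate 2 was the lowest of the 6 arrays for 15 of the 33 genes (45.5%, against 22.3% of the 251 list genes and 11.6% of all genes). Epi replicate 1 was the lowest for 13 of the 33 (39.4%, against 51% of the list genes and 30.5% of all genes). PBS replicate 2 was also the highest array for 10 of the 33, close to its share over all genes (30.3% and 31.5%). The 33 genes thus did not move as 1 block: on PBS replicate 2, DDX21, NOP58, UTP20 and PUS7 stood far below their other arrays, while FBL, CAD, PES1 and CDK4 stood above them. Both replicate 1 arrays stood apart over all genes, with a median shift of -0.28 against the other 4 arrays. There 21 of the 33 genes had lower and 12 higher values, beside 12513 lower and 5619 higher of all 18132 genes.

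**Figure D3:**
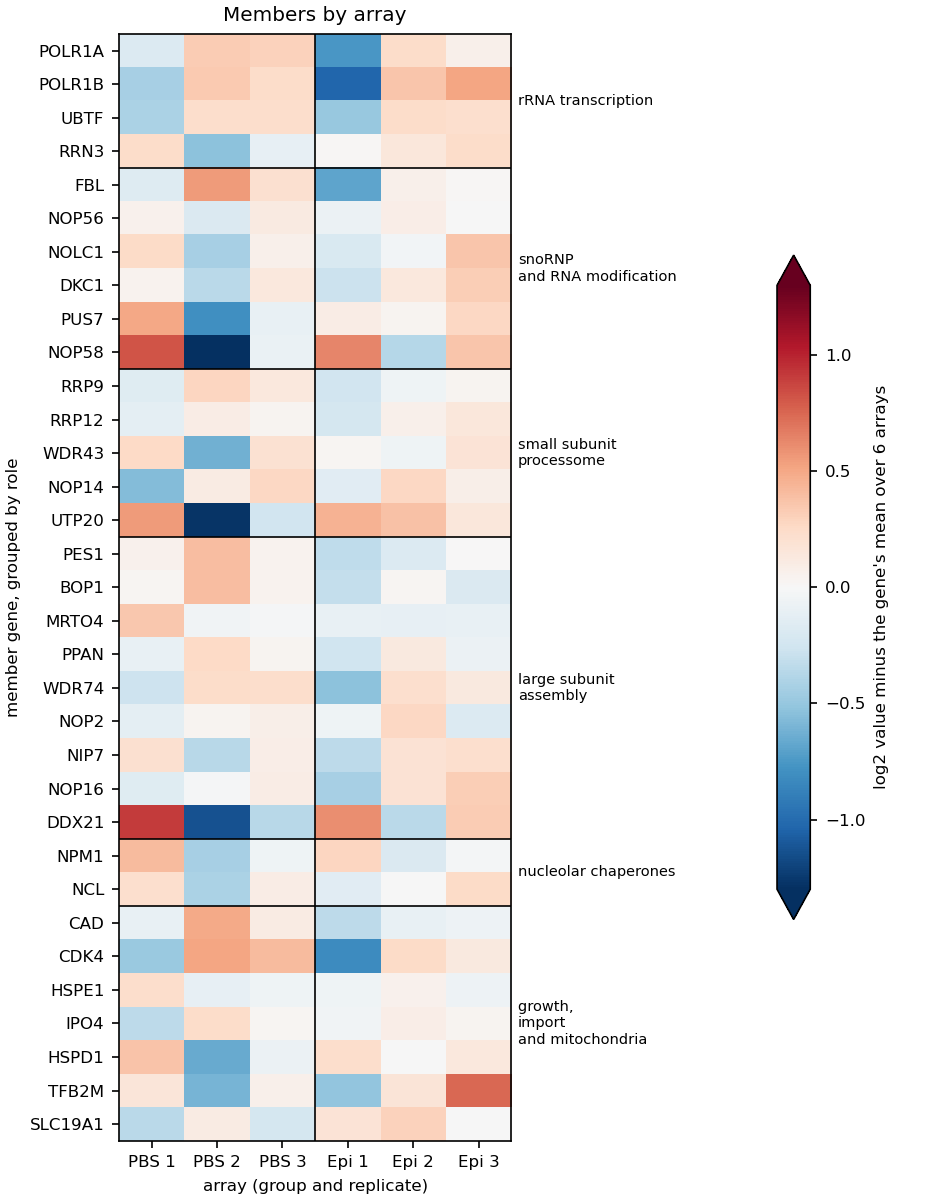
Each row is a gene and each column an array, and the color gives the log2 value minus the mean of that gene over the 6 arrays. The columns of PBS replicate 2 and Epi replicate 1 hold the strongest blues, in different genes, and the color scale ends at 1.3 in each direction.

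Without the replicate 1 arrays the median log2 fold change of the 33 genes was 0.076, against -0.083 over all genes, and none passed the adjusted threshold. At an unadjusted p under 0.05, UTP20, PUS7, RRN3 and TFB2M passed as higher and none as lower, 4 of 33 beside 5.49% of all genes called higher by this rule. With the replicate block on the same 4 arrays, 7 of 33 passed as higher, DDX21, HSPD1 and NOP58 being the other 3, beside 10.2% of all genes. Each of these 7 genes had PBS replicate 2 as its lowest array, and the part of that array in these counts was not tested.

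Among factors of rRNA transcription, POLR1A and POLR1B encode the catalytic core subunits of RNA polymerase I, RRN3 links the polymerase to its promoter factors, and UBTF binds and opens the ribosomal gene promoter. POLR1A read 8.21, 8.72 and 8.69 in the PBS arrays (replicates 1 to 3, the order used throughout) and 7.64, 8.63 and 8.45 in the Epi arrays. Each Epi array lay below the PBS array of its number, while the groups overlapped, and the log2 fold change was -0.30 (SE 0.32). It was -0.0003 without Epi replicate 1 and -0.50 without Epi replicate 2. POLR1B read 9.04, 9.81 and 9.70 in PBS and 8.43, 9.83 and 9.98 in Epi, with both replicate 1 arrays at the bottom and a log2 fold change of -0.10 (SE 0.43), which lay between -0.39 and 0.39 with 1 array left out. UBTF was close to level, with a log2 fold change of -0.025, and both of its replicate 1 arrays (7.92 and 7.85) lay below its other 4 arrays (8.55 to 8.58). RRN3 went the other way, with 6.99, 6.22 and 6.65 in PBS and 6.77, 6.90 and 7.00 in Epi and a log2 fold change of 0.27 (SE 0.26). Its 3 Epi values were close together, and the highest of them barely passed the highest PBS value.

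The snoRNP proteins did not share a direction. FBL (fibrillarin), the methyltransferase of the box C/D particle, read 11.88, 12.60 and 12.25 in PBS and 11.36, 12.11 and 12.06 in Epi. It lay lower on the Epi array of every number, and its log2 fold change of -0.40 (SE 0.31, 95% interval -1.10 to 0.30) was the lowest of the 33. Leaving out 1 array moved it between -0.16 (without Epi replicate 1) and -0.58 (without PBS replicate 1). NOP58, which sits in the same particle, read 11.31, 9.13 and 10.40 in PBS and 11.12, 10.12 and 10.84 in Epi. The PBS arrays alone gave the whole span of 2.18 log2 units, and the log2 fold change of 0.42 (SE 0.53) was well within that spread. It was -0.16 without PBS replicate 2 and 0.93 without PBS replicate 1. NOP56, another core protein of the particle, spanned only 0.30 over all 6 arrays and had a log2 fold change of 0.0050 (SE 0.22). DKC1 (dyskerin), the pseudouridine synthase of the box H/ACA particle, had a log2 fold change of 0.11, the snoRNP chaperone gene NOLC1 of 0.086 and the stand-alone pseudouridine synthase gene PUS7 of 0.27. For all 3 of these the lowest array was PBS replicate 2.

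UTP20, a large scaffold of the small subunit processome, had the highest log2 fold change of the 33. It read 7.48, 5.65 and 6.69 in PBS and 7.38, 7.31 and 7.08 in Epi. The Epi arrays were close together, PBS replicate 2 was low, and PBS replicate 1 was the highest array of all, so the groups overlapped. The log2 fold change was 0.65 (SE 0.43, 95% interval -0.33 to 1.62), a 1.57-fold difference, and the differences within numbers 1 to 3 were -0.10, 1.66 and 0.39. With the replicate block, 1 of the 33 genes, UTP20, had an unadjusted p under 0.05, beside 2.12% of all genes called higher by that rule. Its log2 fold change was 0.17 without PBS replicate 2 and 1.09 without PBS replicate 1. The other 4 genes of this step were closer to 0, with NOP14, a component of the processome, at 0.13, WDR43, another of its components, at 0.10, RRP12, which is needed for export and maturation of the particles, at -0.010 and RRP9, a U3 snoRNP protein, at -0.18.

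Of the 33 genes, those whose groups did not overlap all act in assembly of the large subunit. PES1 and BOP1 encode partners in the PeBoW complex, which processes the rRNA of the large subunit. PES1 read 8.93, 9.27 and 8.92 in PBS and 8.54, 8.69 and 8.87 in Epi, so every Epi array lay below every PBS array, with a log2 fold change of -0.34 (SE 0.24, 95% interval -0.87 to 0.20). BOP1 read 9.78, 10.15 and 9.80 in PBS and 9.44, 9.77 and 9.57 in Epi, again without overlap, though Epi replicate 2 was only just under PBS replicate 1, with a log2 fold change of -0.32 (SE 0.24). Without PBS replicate 2 the log2 fold changes were -0.22 for PES1 and -0.20 for BOP1. WDR12, the remaining partner of the complex, did not follow them, with 9.62, 9.63 and 10.14 in PBS, 9.26, 10.07 and 10.10 in Epi and a log2 fold change of 0.0072 (SE 0.31). MRTO4, a factor that holds the place of the ribosomal stalk during assembly, read 9.58, 9.18 and 9.21 in PBS and 9.13, 9.12 and 9.13 in Epi. Its groups did not overlap either, but the differences within numbers 1 to 3 were -0.45, -0.069 and -0.082, and the log2 fold change was -0.20 (SE 0.23), or -0.072 without PBS replicate 1.

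These were 3 of the 33 genes (9.09%), against 2.22% of all genes with every Epi array below every PBS array. No gene of the 33 lay wholly above, as 0.982% of all genes did. Counted by replicate number, 10 of the 33 (30.3%) were lower in Epi in all 3, against 13.2% of all genes, and 5 of the 10 act in the large subunit (PES1, BOP1, MRTO4, PPAN and WDR74). The other 5 were FBL, CAD, CDK4, POLR1A and RRP9. In the opposite direction stood SLC19A1 alone, 1 of 33 beside 5.71% of all genes. Most of these differences were small, between -0.13 and -0.40 in the group means, and none passed the adjusted test in either fit. The 47 other measured factors of the large subunit did not share the excess. Of these, 1 (2.13%) had every Epi array below every PBS array, and 5 (10.6%) were lower in Epi in all 3 numbers. That was the smallest such share among the 6 related lists. Over their 251 genes, 17.5% were lower in all 3 numbers, and the largest share was 21.9%, of the cytosolic ribosomal proteins. Every Epi array lay below every PBS array for 2.39% of the 251.

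DDX21, an RNA helicase of the nucleolus, was the most variable of the 9 large subunit genes, spanning 2.05 log2 units. It read 12.43, 10.38 and 11.16 in PBS and 12.12, 11.17 and 11.85 in Epi, both replicate 1 arrays being high and PBS replicate 2 low, and its log2 fold change was 0.39 (SE 0.50), or -0.083 without PBS replicate 2 and 0.94 without PBS replicate 1. PPAN and WDR74, which act in pre-rRNA processing, had log2 fold changes of -0.14 and -0.13. NOP2, an rRNA methyltransferase, stood at 0.019, and NIP7 and NOP16 at 0.045 each, all with SE of 0.23 to 0.27.

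NCL (nucleolin) and NPM1 (nucleophosmin) are abundant multifunctional proteins of the nucleolus. NCL read 12.95, 12.32 and 12.83 in PBS and 12.59, 12.72 and 12.98 in Epi, and NPM1 read 14.32, 13.48 and 13.86 in PBS and 14.19, 13.73 and 13.89 in Epi. For both genes the Epi values lay almost wholly inside the range of the PBS values, and PBS replicate 2 was the lowest array. The log2 fold changes were 0.061 (SE 0.26) for NCL and 0.047 (SE 0.29) for NPM1. The sign of both turned with the array left out, with 0.18 and 0.26 at the highest and -0.13 and -0.16 at the lowest.

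**Figure D4:**
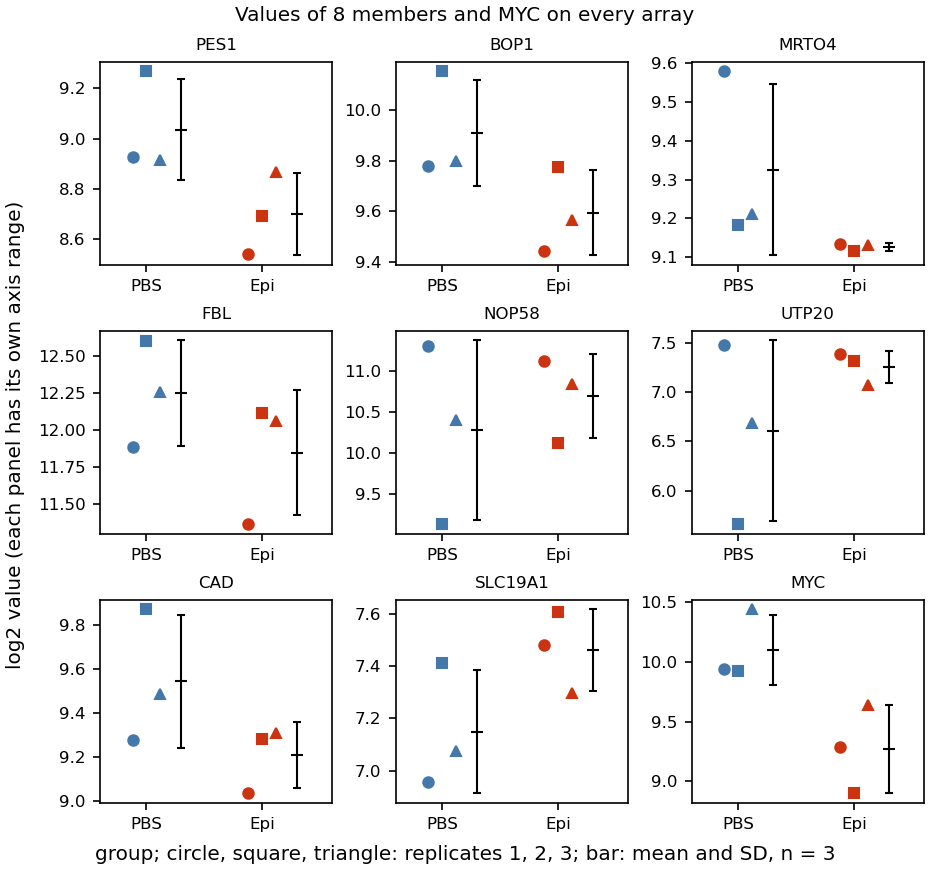
Log2 values of 8 of the 33 genes and of MYC on every array, with the mean and SD of each group (n = 3) beside the points. Only PES1, BOP1, MRTO4 and MYC show Epi points that all lie below the PBS points, and each panel has its own axis range.

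The remaining targets serve growth outside the ribosome itself. CAD, the enzyme of the first steps of pyrimidine synthesis, read 9.27, 9.87 and 9.49 in PBS and 9.03, 9.28 and 9.31 in Epi. It lay lower in Epi for every number, but Epi replicates 2 and 3 were above PBS replicate 1, and the log2 fold change was -0.34 (SE 0.25), or -0.17 without PBS replicate 2. CDK4, the cyclin-dependent kinase of G1 and the gene with 3 E-boxes shown above, read 10.83, 11.82 and 11.72 in PBS and 10.49, 11.56 and 11.44 in Epi. Its differences within the numbers were alike at -0.34, -0.26 and -0.28, while its replicate 1 arrays stood far below the others, and the log2 fold change was -0.29 (SE 0.38, or 0.20 when the number was modeled as a block). With 1 array left out it lay between -0.61 (without PBS replicate 1) and 0.043 (without Epi replicate 1). SLC19A1, the reduced folate carrier, read 6.96, 7.41 and 7.08 in PBS and 7.48, 7.61 and 7.30 in Epi. Epi was higher for every number with 1 Epi array inside the PBS range, and the log2 fold change was 0.31 (SE 0.24).

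The mitochondrial chaperonin genes HSPD1 and HSPE1, which share the E-box shown above, had log2 fold changes of 0.24 (SE 0.30) and -0.043 (SE 0.22). TFB2M, a mitochondrial transcription factor, read highest on Epi replicate 3 (10.09) and lowest on PBS replicate 2 (8.74), with a log2 fold change of 0.26 (SE 0.37). IPO4, an importin that carries histones and ribosomal proteins into the nucleus, stood at 0.047 (SE 0.24).

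Genes with and without the E-box lay on both sides of 0. The 15 genes with CACGTG in a window had a median log2 fold change of 0.047, with 9 above and 6 below 0, and included UTP20 and FBL, the highest and the lowest of the 33. The 14 genes with a window and no match had a median of 0.025, with 8 above and 6 below 0.

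Of the 33 genes, 23 had several probesets and 10 had 1. Over all 85 probesets none passed the adjusted threshold, with or without the block, and none had an unadjusted p under 0.05 without it. With the block 2 of the 85 did, 1 of CDK4 (-0.48) and 1 of DDX21 (0.60), beside 4.54% of all probesets. The only probeset of UTP20 was not among them (unadjusted p = 0.0596 from limma with the block over all probesets), although it passed in the blocked fit over genes. For 13 of the 23 genes the probesets differed in sign. The 7 probesets of HSPD1 spanned log2 fold changes of -0.29 to 0.48 and the 4 of SLC19A1 spanned -0.0021 to 0.31, while all 4 of CDK4 (-0.48 to -0.29), all 6 of POLR1B (-0.19 to -0.018) and all 3 of DDX21 (0.39 to 0.60) kept to 1 side of 0. With the mean of the probesets in place of the brightest, the median over the 33 genes was -0.0061.

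MYC itself was lower on every Epi array than on every PBS array, a pattern that 2.22% of all genes showed. Its only probeset read 9.94, 9.92 and 10.44 in PBS and 9.29, 8.90 and 9.64 in Epi. The log2 fold change was -0.82 (SE 0.28, 95% interval -1.47 to -0.18), a 1.77-fold difference, with an unadjusted p = 0.0181 and an adjusted p = 0.9999 from limma. Once blocked by number, limma gave an adjusted p of 0.0955, so the difference did not pass in either fit. MAX, the obligate partner, stood at -0.26 (SE 0.27), with Epi replicate 1 low and the other arrays nearly level. Among 14 genes of MYC and its partners and regulators, none was called in either fit, and the next lowest unadjusted p-values were those of MXI1, a repressor that competes for MAX, at -0.73 (SE 0.40), and MGA, another MAX partner, at 0.45 (SE 0.35). USP28, a deubiquitinase known to act on MYC protein, had a log2 fold change of 0.054 (SE 0.27). The arrays measure mRNA and give no level of MYC protein.

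No gene of the wider ribosome pathway passed the test. The 6 lists, with 251 measured genes, cover the wider ribosome pathway, MYC and its partners, and other MYC targets. None of the 251 was called in either fit, and 3 (1.20%) had an unadjusted p under 0.05 without the block, close to the 1.33% of all genes. These were MYC, RRP7A and MTHFD1L, all lower. With the block 1 gene passed as higher and 7 (2.79%) as lower, against 2.12% and 3.09% of all genes. Every Epi array lay below every PBS array for 6 of the 251 (2.39%), close to the 2.22% of all genes. For 1 of the 251 every Epi array lay above, as for 0.982% of all genes. Of 50 other small subunit factors, the median log2 fold change was 0.040 with 30 above 0 (60%, against 45.7% of all genes). RRP7A, a processome protein, stood lowest at -0.59 (SE 0.24, unadjusted p = 0.0383 from limma), without overlap between groups. Of 47 other large subunit factors the median was -0.022, and NLE1, a factor of late large subunit assembly, read 8.64, 8.90 and 8.41 in PBS and 8.09, 8.24 and 8.16 in Epi, also without overlap, with a log2 fold change of -0.49 (SE 0.24). The 37 other polymerase I, snoRNP and exosome factors had a median of -0.074, with EXOSC7, an exosome subunit, at -0.52 (SE 0.29).

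Cytosolic ribosomal proteins, the products for which this machinery exists, had the narrowest quartile range of the 6 lists. Of 64 measured genes, 13 had a log2 fold change above 0 (20.3%, against 45.7% of all genes). The median of the 64 was -0.043, against -0.016 over all genes, and the quartiles lay at -0.081 and -0.012. This depended on the replicate number. Epi lay below PBS for 56 of the 64 in replicate 1. It lay above PBS for 35.9% in replicate 2 (43.4% of all genes) and for 60.9% in replicate 3 (39.5% of all genes). Without the replicate 1 arrays the median of the 64 was -0.0041, against -0.083 over all genes. RPL27A was the farthest from 0 at 0.55 (SE 0.34), and it was read at only 3.69 to 5.24, below the value (5.69) used to filter dim genes. Of 39 other MYC targets of metabolism and translation, the median was -0.0047, and MTHFD1L, a mitochondrial enzyme of one-carbon metabolism, read 10.16, 10.53 and 10.06 in PBS and 8.97, 9.43 and 9.59 in Epi. Its groups did not overlap, and its log2 fold change was -0.92 (SE 0.27, unadjusted p = 0.00782, adjusted p = 0.9999 from limma, and adjusted p = 0.0701 with the block). LDHA, a lactate dehydrogenase subunit, stood at 0.054 (SE 0.25).

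**Figure D5:**
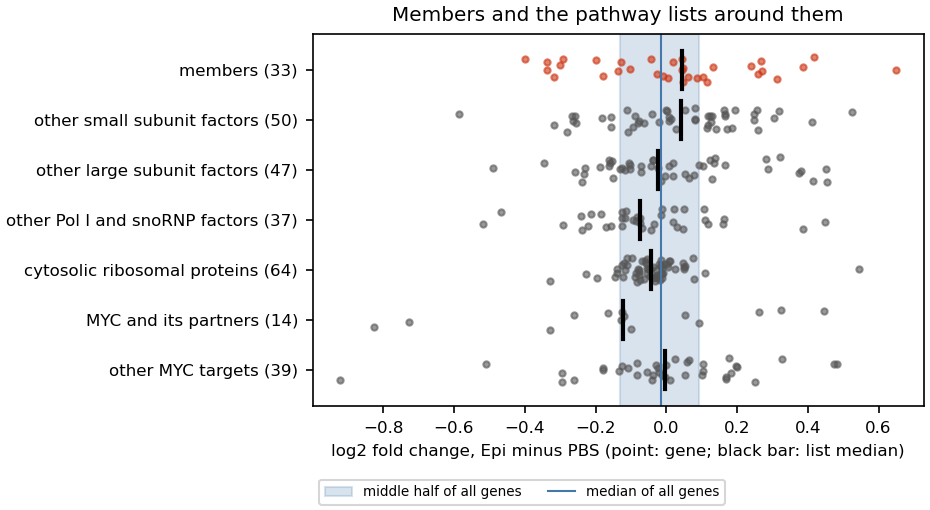
Log2 fold change (Epi minus PBS, x axis) of each measured gene of the 33 targets and of the 6 lists around them, with the number of genes in brackets and the median as a black bar. The shaded band runs from the lower to the upper quartile of all genes, and the median of every list lies inside it while MTHFD1L and MYC lie far to its left.

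The genes whose pattern over the 6 arrays was most like the mean of the 33 were RPE, FBXO3 and ZNF207, each with a Pearson correlation of 0.991 over 6 arrays, given as a description of arrays that share those groups and numbers.

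In tumor tissue, fewer cells of a type and less RNA per cell cannot be told apart. The 5 MDA-MB-231 and mesenchymal markers had a mean log2 value of 12.3 to 12.4 on the PBS arrays and 12.2 to 12.4 on the Epi arrays. This mean joins markers of opposite direction. KRT18 (0.42) and CAV1 (0.29) had log2 fold changes above 0, and AXL (-0.41), VIM (-0.30) and CD44 (-0.28) below. The 6 fibroblast markers averaged 4.80 to 4.97 in PBS and 4.76 to 5.09 in Epi and the 5 macrophage markers 4.76 to 5.37 in PBS and 4.82 to 4.95 in Epi. Wider ranges were seen for the 4 endothelial markers, with 6.07 to 7.19 in PBS and 6.46 to 7.05 in Epi, and for the 3 pericyte markers, with 5.60 to 6.40 in PBS and 5.70 to 5.87 in Epi. No marker of any of the 7 lists was called in either fit. With the block, PECAM1 of endothelium (0.44) and CD68 of macrophages (-0.55) had an unadjusted p under 0.05, beside 2.12% of all genes higher and 3.09% lower by that rule. Other endothelial markers had log2 fold changes from -0.11 to 0.035, and other macrophage markers from -0.38 to 0.092. Mouse transcripts are read by this human array only where they resemble the probes. The part of host cells in any value was not tested.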

How the data were processed

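Log2 values of each probeset were deposited by the authors. RMA (background subtraction, normalization and probe summary) and Affymetrix Expression Console are named, without versions, by the submitters' processing notes. Scanner files were not used here, so RMA itself could not be rerun, and other normalizations were applied to the deposited values. Medians of the deposited values over all probesets were 5.98 for PBS replicate 1 and 6.05 for Epi replicate 1. They were 6.37 to 6.42 on the other arrays. Of 49395 probesets, 102 controls were left out, 44988 had 1 gene in GEO's platform annotation, 1832 had several and 2473 were not listed. For 11734 of 18132 genes the brightest of several probesets was used. Arrays give no read depth, and their number limits the precision.

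Epi and PBS arrays were compared with limma 3.58.1 under R 4.3.3, using lmFit and default eBayes over all genes with Benjamini-Hochberg adjustment at 0.05. The study names no test for the arrays, and its general statistics include Student's t-test. It selected array genes by a fold change above 2 and a Q value under 0.05. Replicate numbers come from the labels. Deviations from the group means correlated at 0.630, 0.627 and 0.453 for numbers 1 to 3, which meets the rule for treating numbers as pairs, but PBS replicate 3 and Epi replicate 2 also correlated at 0.523, and both replicate 1 arrays stand apart, so the fit with the replicate block is given beside the other.

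The genes, the 6 lists around them and the alternatives were chosen with earlier results of these data known. Values on every array are given for genes with the 6 lowest p-values, the 3 highest and 3 lowest fold changes, no overlap between groups or a call in either fit, and for NCL, NPM1, FBL, POLR1A, POLR1B, CAD and CDK4, and RRN3 was added after its values were seen. From the lists, MYC, MAX and up to 3 genes a list with the lowest p are named, and WDR12, USP28 and LDHA were added after their values were seen. Promoter windows are RefSeq's, build GRCh38.p14. The array files name no genome build. Alternatives were the replicate block, other normalizations, the methods' t-test, a variance trend, array weights, a filter on dim genes, other uses of probesets, the replicate 1 arrays as a block or left out, and leaving out each array.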

Additional observations from a re-analysis of the deposited data

How the results depend on the processing

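None of the 33 genes was called in the fits with the replicate block, with quantile normalization or median centring (with or without the block), in the methods' t-test, with a variance trend, when genes with a mean in the lowest 30 percent were dropped, with the mean of probesets or all probesets, with a block for the replicate 1 arrays, without those arrays, or without any 1 array (0 to 0 called). The exception was weighting the arrays, where the weights failed to converge and the fit called 2352 of all genes: 2 of the 33 were called there, SLC19A1 (0.48) and UTP20 (0.60), and 21 genes of the lists, MYC (-1.41) among them. With the replicate block and without replicate 3, 1 gene of the lists was called, MTHFD1L. In the other fits no gene of the lists was called (0 to 0 without any 1 array).

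The median log2 fold change of the 33 was 0.045 with and without the replicate block, 0.072 after quantile normalization and -0.089 with the block and without replicate 2, the only value farther from 0.045 than the spread between arrays (SD 0.13). Leaving out 1 array at a time moved it between -0.082 (without PBS replicate 2) and 0.12 (without Epi replicate 1), and it was below 0 in 8 of 22 alternatives, so its sign is not settled. Over 315 refits of 14 genes of the 33 and MYC, 17 turned the sign, none of them for a called value, in POLR1B, NCL, NPM1, NOP58, DDX21 and CDK4. The precision is limited by 3 arrays per group.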
